A study of Mus musculus with 2 samples.

Results

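The keratin genes were all gene symbols of the deposited feature list made of Krt, a number and at most 1 letter. There were 53 of them among 31053 features, 28 of type I and 25 of type II, and they were read by keratinocyte layer, hair follicle compartment and sebocyte class. The study compared full-thickness back skin of 1 mouse carrying a Card14 knock-in (genotype Card14 KI +/+, Card14KI below), a model of the skin disease pityriasis rubra pilaris, with that of 1 wild type mouse (WT). Both mice were C57BL/6 and 12 months old. The skin was digested with enzymes for 73 min, freed of dead cells and counted with the 10x Genomics 3' kit, in which a unique molecular identifier (UMI) stands for 1 captured transcript. The labels do not name the mutation, and counts per gene cannot check it. With 1 library per group, no test between the groups was possible, and the 95% intervals given with ratios cover counting error only.

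Keratins are the intermediate filament proteins of epithelia, and each filament is built from pairs of a type I and a type II keratin. Basal cells of the epidermis make Krt5 and Krt14, and cells that leave the basal layer switch to Krt1 and Krt10. Krt6a, Krt16 and Krt17 belong to the hair follicle and to wounded or inflamed epidermis, and the inner root sheath and the hair shaft each have keratins of their own. Of the 53 genes, 27 lie on chromosome 11 and 26 on chromosome 15, in GENCODE vM21 coordinates of GRCm38. These are the type I cluster, the type II cluster and Krt18, a type I gene beside the type II cluster.

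RefSeq promoters of GRCm38.p6, from 250 bases before to 50 bases after the gene start, were at hand for 36 members, with 37 entries in all. The 4 printed here, 5′ to 3′ on the gene's own strand, belong to inner root sheath keratins whose transcripts appeared together in the same WT cells (Krt25, Krt28 and Krt71) and to the most abundant epidermal type I keratin (Krt10). Capitals mark the word TATAAA.
Krt25, chr11:99322902-99323201, minus strand: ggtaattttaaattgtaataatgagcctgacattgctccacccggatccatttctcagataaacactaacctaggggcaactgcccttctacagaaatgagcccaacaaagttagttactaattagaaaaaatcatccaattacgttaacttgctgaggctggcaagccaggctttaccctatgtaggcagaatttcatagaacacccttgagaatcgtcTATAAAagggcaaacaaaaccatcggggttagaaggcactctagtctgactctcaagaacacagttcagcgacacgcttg
Krt28, chr11:99374854-99375153, minus strand: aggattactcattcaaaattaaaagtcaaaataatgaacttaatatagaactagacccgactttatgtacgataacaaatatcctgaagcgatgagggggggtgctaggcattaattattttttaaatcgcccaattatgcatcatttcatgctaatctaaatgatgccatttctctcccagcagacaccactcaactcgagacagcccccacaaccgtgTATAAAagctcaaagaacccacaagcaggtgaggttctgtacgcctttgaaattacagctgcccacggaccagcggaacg
Krt71, chr15:101743048-101743347, minus strand: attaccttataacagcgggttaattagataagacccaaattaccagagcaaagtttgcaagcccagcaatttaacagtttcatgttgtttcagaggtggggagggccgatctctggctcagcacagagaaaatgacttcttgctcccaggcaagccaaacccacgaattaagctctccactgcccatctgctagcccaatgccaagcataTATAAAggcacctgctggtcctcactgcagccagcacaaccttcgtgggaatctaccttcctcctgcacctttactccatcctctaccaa
Krt10, chr11:99389315-99389614, minus strand: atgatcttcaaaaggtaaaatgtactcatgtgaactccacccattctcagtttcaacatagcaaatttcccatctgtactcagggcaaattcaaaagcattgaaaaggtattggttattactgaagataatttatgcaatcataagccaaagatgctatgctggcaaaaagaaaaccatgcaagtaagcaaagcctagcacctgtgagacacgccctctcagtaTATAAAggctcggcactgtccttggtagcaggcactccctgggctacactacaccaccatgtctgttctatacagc
The word TATAAA, searched on the gene's strand, stood wholly between 40 and 15 bases before the start in 13 of the 37 keratin entries (35.1%), against 1.99% of all 32851 promoters of the same length. By role, it was there in 5 of 7 inner root sheath, 4 of 9 hair shaft and 1 of 4 suprabasal entries. It was also in 2 of 6 entries of internal stratified epithelia and 1 of 5 of simple epithelia. None of the 2 basal, 2 upper follicle or companion layer and 2 other entries had it, and no stress keratin had an entry. The AP-1 word TGANTCA, which reads the same on both strands and cannot overlap TATAAA, was in 5.41% of keratin entries and in 7.81% of all promoters. A match is a description of these letters only.

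After filtering, 2835 Card14KI and 4161 WT cells remained, with a median of 6875 UMIs in Card14KI and 7344 UMIs in WT, and 2 barcodes were shared by the libraries. Cells of the keratinocyte lineage numbered 1011 in Card14KI and 1140 in WT and formed 19 clusters. Keratins took no part in the clustering or in the naming, so their levels are read in classes made without them. Of these, 13 were named from other markers, and the 6 that were not go by their 2 leading genes. The basal class had 165 Card14KI and 57 WT cells, the spinous class 86 Card14KI and 51 WT cells, and the granular class 261 Card14KI and 148 WT cells. The upper follicle class had 126 Card14KI and 104 WT cells, and the sebocyte class 175 Card14KI and 176 WT cells. Median UMIs per basal cell were 43813 in Card14KI and 22505 in WT, and in granular cells 24132 in Card14KI and 28310 in WT. The 12 granular markers summed to 49232 CPM, the UMIs of a gene scaled to the class's total, in Card14KI granular cells and 95673 CPM in WT ones. Fibroblast markers, 6 genes, summed to 19.3 to 29.9 CPM in the 5 named classes of Card14KI and to 83.9 to 178 CPM in those of WT, and their part in the results was not tested.

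Levels are CPM of the UMIs summed over a class (10x 3' UMIs count transcripts, so no length correction applies). A member counts as higher or lower where the CPM ratio of Card14KI over WT was at least 1.5, or at most its inverse, with 10 or more UMIs over both libraries. Fibroblasts, which should make no epidermal keratin, gave the background: keratins were 0.0329% of their UMIs in Card14KI and 0.0408% in WT. Krt10, the highest of them there, stood at 109 CPM in Card14KI fibroblasts and 97.6 CPM in WT fibroblasts. Some members sat mainly in fibroblasts, and their source was not tested. Krt36 had 95 of its 97 Card14KI and 121 of its 144 WT kept UMIs there, and Krt20 had 12 of 13 and 74 of 80. Krt83 was at 30.3 CPM in Card14KI and 56.1 CPM in WT lymphocytes.

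Keratin genes had their highest levels in the epidermal layers, in the upper follicle or in the lower follicle. In a class of 30 or more cells, 23 members reached 1000 CPM or more, 9 reached 100 CPM, 8 reached 10 CPM and 13 stayed below that. In Card14KI, 12 members exceeded 100 CPM, and their highest level fell in basal (3), spinous (1), granular (5) or upper follicle cells (3). In WT, 32 members did so, of which 13 were highest in the cluster led by Tchh and Krtap8-1 and 4 in the inner root sheath class. These counts describe classes of unequal size and depth. No member had 0 UMIs in both libraries, and 46 had at least 1 UMI in each.

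**Figure D1:**
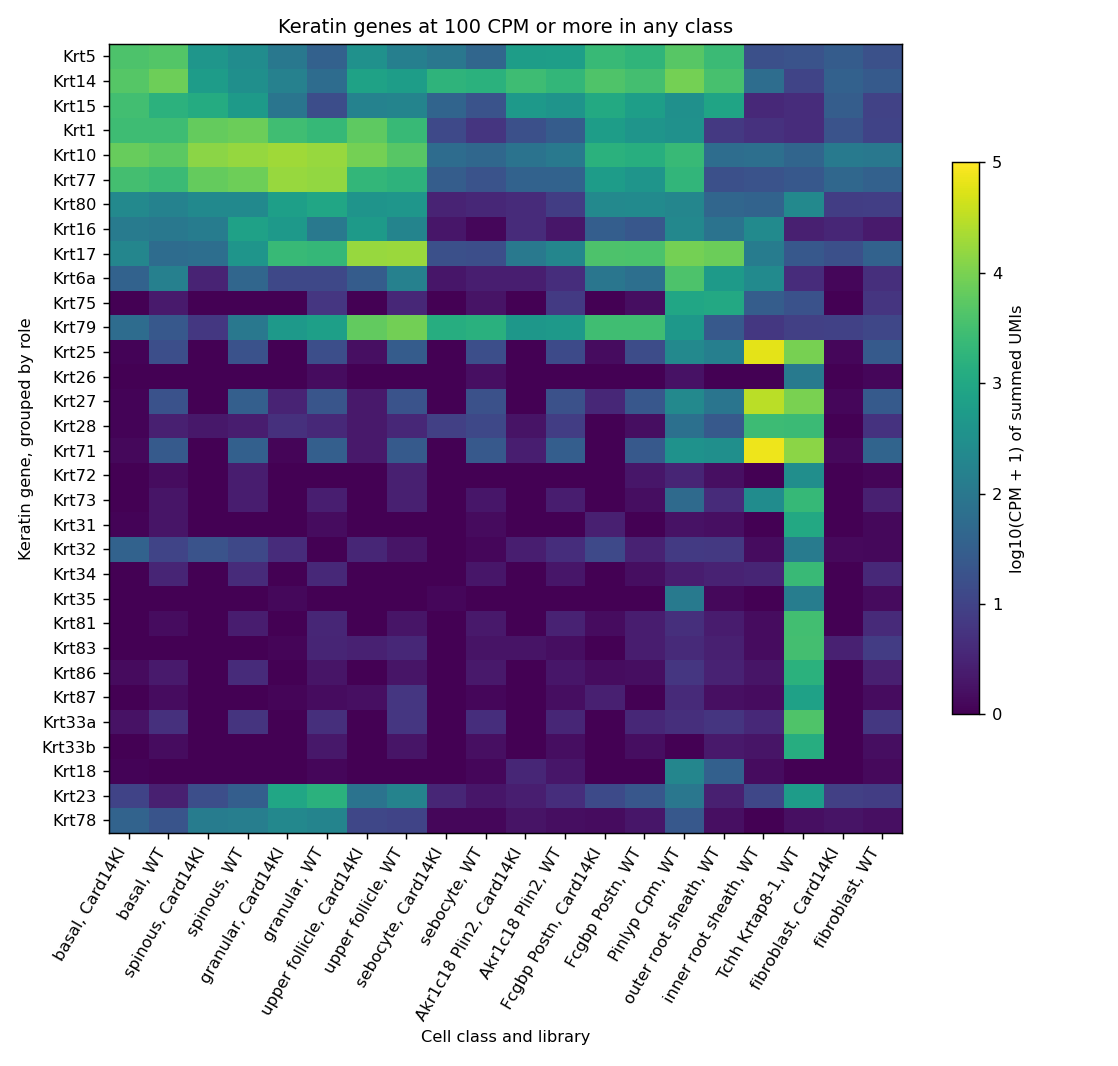
Level of each keratin gene that reached 100 CPM in any class of 30 or more cells (rows, grouped by role) in each class and library (columns), as log10 of CPM + 1. Krt10 and Krt77 are bright in granular cells of both libraries, while Krt25, Krt27 and Krt71 are bright in the WT inner root sheath and Tchh Krtap8-1 columns, for which Card14KI had 0 cells and 1 cell.

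The total keratin load of the epidermal layers was close in the 2 libraries. Keratins were 2.56% of UMIs in Card14KI basal cells and 2.57% in WT, a ratio of 0.994 (0.985 to 1.004). In spinous cells they were 2.95% in Card14KI and 3.48% in WT (0.850, 0.835 to 0.865), and in granular cells 4.48% in Card14KI and 4.05% in WT (1.11, 1.10 to 1.11). The upper follicle class had 4.25% in Card14KI and 3.75% in WT, and sebocytes had far less, 0.337% in Card14KI and 0.327% in WT. The WT inner root sheath class was the richest, with 16.9% of its UMIs on keratins. The spinous ratio did not keep its side of 1 when cells were filtered or clustered in other ways.

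Within that load the makeup by role shifted. Suprabasal keratins made up 51.5% of keratin UMIs in Card14KI basal cells and 43.0% in WT basal cells, and basal keratins 46.4% in Card14KI and 55.3% in WT. The basal class therefore held many Krt1 and Krt10 transcripts in both libraries, although its 8 basal markers, with integrin genes among them, summed to 3108 CPM in Card14KI and 3463 CPM in WT, with 1 of 8 higher in Card14KI. The 12 granular markers summed to 329 CPM in Card14KI basal cells and 229 CPM in WT ones, with 9 of 12 higher, and their part was not tested. In the upper follicle class, suprabasal keratins were 39.8% in Card14KI and 25.3% in WT, and stress keratins 41.6% in Card14KI and 47.8% in WT. Spinous and granular cells were at 88.0% to 92.3% suprabasal keratin in both libraries.

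**Figure D2:**
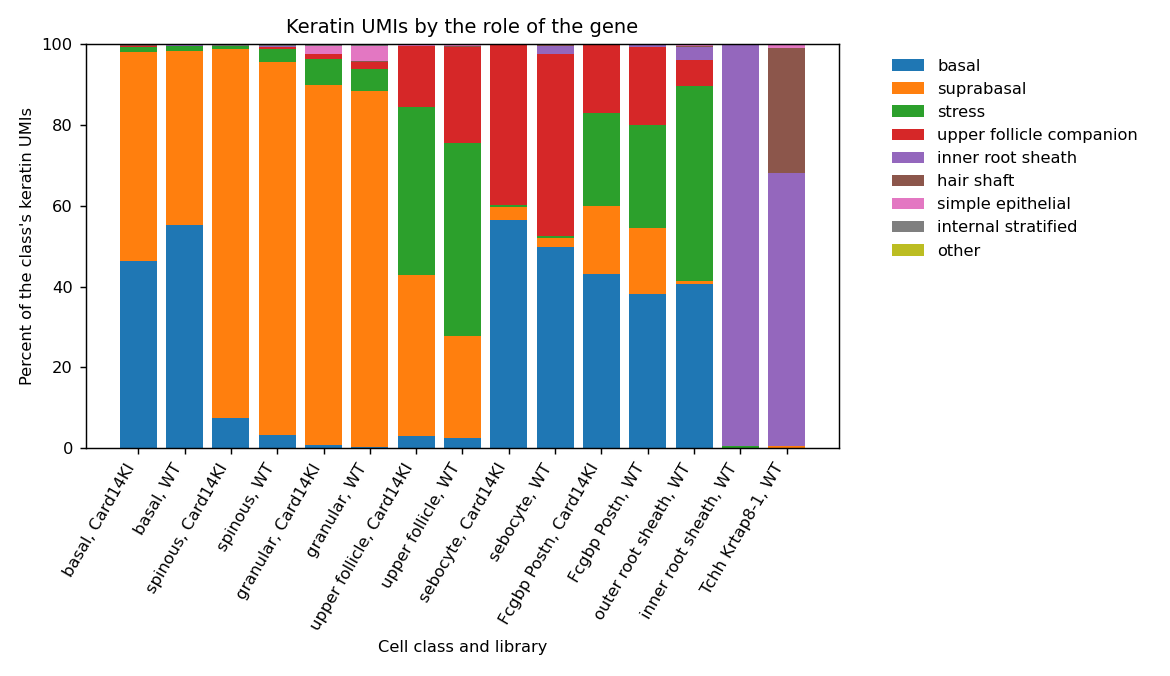
Share of each class's keratin UMIs by the role of the gene, for classes with 30 or more cells in the library, with Card14KI left of WT where both are present. Suprabasal keratins take 39.8% in the Card14KI upper follicle bar and 25.3% in the WT one, and inner root sheath keratins take 99.5% in the WT inner root sheath bar.

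Type II UMIs per type I UMI were 0.677 in Card14KI basal cells and 0.669 in WT, and 0.866 in Card14KI spinous cells and 0.897 in WT. In granular cells they were 0.891 in Card14KI and 0.919 in WT. The filament pair of the basal layer moved apart from this: Krt5 per Krt14 was 0.829 (0.817 to 0.842) in Card14KI basal cells and 0.573 (0.559 to 0.587) in WT ones. In granular cells Krt1 and Krt77 together nearly equalled Krt10, with 0.998 (0.991 to 1.006) in Card14KI and 1.02 (1.01 to 1.03) in WT. Krt1 alone was 0.146 of Krt10 there in Card14KI and 0.131 in WT, and Krt77 alone 0.852 in Card14KI and 0.894 in WT. In spinous cells Krt1 per Krt10 was 0.466 in Card14KI and 0.474 in WT.

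Suprabasal keratins were alike in the spinous and granular classes of both libraries and differed in the upper follicle class. Krt10, the type I keratin of differentiating epidermis, stood at 13815 CPM in Card14KI spinous cells and 16242 CPM in WT, and at 19666 CPM in Card14KI granular cells and 17177 CPM in WT. Krt1, its type II partner, stood at 6440.1 CPM in Card14KI spinous cells and 7691 CPM in WT, and at 2874 CPM in Card14KI granular cells and 2247 CPM in WT. Krt77, a type II keratin of mouse suprabasal epidermis, stood at 16761 CPM in Card14KI granular cells and 15349.6 CPM in WT. None of these 5 ratios, which ran from 0.837 to 1.28, passed 1.5-fold. In both libraries Krt1 was highest in spinous cells, whereas Krt10 and Krt77 were highest in granular cells.

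In the upper follicle class, Krt1 was at 5642 CPM in Card14KI and 2296 CPM in WT, a ratio of 2.46 (2.35 to 2.57), and Krt10 at 8864 CPM in Card14KI and 5050.1 CPM in WT (1.76, 1.70 to 1.81). The class was made of 2 clusters. The cluster led by 2310046K23Rik and Cst6 (105 Card14KI and 65 WT cells) had Krt1 at 6956 CPM in Card14KI and 3451 CPM in WT. The cluster led by Cst6 and AA467197 (21 Card14KI and 39 WT cells) had it at 19.3 CPM in Card14KI and 21.0 CPM in WT. Most of the difference thus sat in 1 cluster, and it turned round to a log2 ratio of -0.12 where the class held little but the other, with cells of high doublet score kept or at resolution 1.5. Krt10 had a log2 ratio of 0.24 at resolution 0.5. All 8 basal markers were higher in the Card14KI upper follicle class, with sums of 558 CPM in Card14KI and 333 CPM in WT, and the 12 granular markers summed to 953 CPM in Card14KI and 943 CPM in WT; their part was not tested.

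Among basal keratins, Krt15 was higher and Krt14 lower in the Card14KI basal class. Krt15, a type I keratin of basal cells and the bulge, was at 3107 CPM in Card14KI basal cells and 1637 CPM in WT ones, a ratio of 1.90 (1.83 to 1.97). Krt14 was at 4802 CPM in Card14KI basal cells and 8008 CPM in WT, 1.67-fold lower (1.64 to 1.70). Its partner Krt5 was at 3981 CPM in Card14KI and 4591 CPM in WT (0.867). All but 2 of the 165 Card14KI basal cells had a Krt15 UMI, 98.8%, against 96.5% in WT, and 93.7% in Card14KI against 83.9% in WT once cells were thinned to 2000 UMIs. In fibroblasts, at a median of 5588 UMIs in Card14KI and 7197 UMIs in WT, that share was 8.01% in Card14KI and 6.15% in WT before thinning and 2.58% in Card14KI and 1.89% in WT after it. The log2 ratio of CPM + 10 of Krt15 in basal cells lay between 0.60 and 1.09, and that of Krt14 between -0.80 and -0.58, over the alternatives run.

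All 3 basal keratins had higher levels in the Card14KI suprabasal layers. In spinous cells Krt15 was at 1209 CPM in Card14KI and 523 CPM in WT (2.31, 2.04 to 2.62), Krt14 at 573 CPM in Card14KI and 306 CPM in WT (1.87, 1.59 to 2.22), and Krt5 at 419 CPM in Card14KI and 275 CPM in WT (1.53, 1.27 to 1.83). In granular cells Krt15 was at 87.5 CPM in Card14KI and 14.3 CPM in WT (6.12, 4.72 to 8.07). Krt14 was at 158 CPM in Card14KI and 57.9 CPM in WT there (2.73, 2.38 to 3.14), and Krt5 at 97.9 CPM and 34.7 CPM (2.82, 2.36 to 3.38). Fibroblasts held Krt15 at 28.2 CPM in Card14KI and 8.88 CPM in WT, so the WT granular level of Krt15 was close to background. They held Krt14 at 34.5 CPM and 25.6 CPM, and Krt5 at 27.1 CPM and 16.1 CPM. A Krt14 UMI was in 44.1% of Card14KI and 42.6% of WT granular cells, and a Krt5 UMI in 27.2% and 33.1%. Thinned, these shares were 8.33% and 8.84% for Krt14 and 4.37% and 6.12% for Krt5, not higher in Card14KI. The highest WT cell of each gene held 156 of 255 Krt14 and 85 of 153 Krt5 UMIs, and that of Card14KI 281 of 1055 and 251 of 654. The cluster led by Hrnr and Hal held 510 of the 585 granular Krt15 UMIs of Card14KI and 34 of the 63 of WT. The 8 basal markers summed to 139 CPM in Card14KI granular cells and 106 CPM in WT, with 5 of 8 higher, and to 1005 CPM in Card14KI spinous cells and 825 CPM in WT, with 7 of 8 higher; their part was not tested. With the stricter cell filter the log2 ratio of Krt14 in granular cells was 0.14, that of Krt15 at resolution 1.5 was 0.52, and Krt5 turned round to -0.15 there. Thinned to 2000 UMIs, Krt5 in spinous cells turned round to -0.043.

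Krt16 was the stress keratin with the clearest difference. This type I keratin, little made in resting epidermis and induced in wounds and psoriasis, was at 494 CPM in Card14KI granular cells and 103 CPM in WT, a ratio of 4.80 (4.35 to 5.30). A Krt16 UMI was seen in 43.3% of Card14KI and 18.9% of WT granular cells, and in 23.8% of Card14KI and 8.16% of WT cells once thinned, against 1.52% of Card14KI and 1.11% of WT fibroblasts. No single cell carried it: the highest cell had 273 of 3301 UMIs in Card14KI and 128 of 454 in WT. The log2 ratio lay between 1.69 and 2.63 over the alternatives.

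The 4 granular clusters all had more Krt16 in Card14KI. It stood at 359 CPM in Card14KI and 101 CPM in WT in the cluster led by Wfdc21 and Lor, at 333 CPM in Card14KI and 81.6 CPM in WT in that led by Hrnr and Hal, and at 2183 CPM in Card14KI and 452 CPM in WT in that led by Flg and Lor. In the cluster led by Flg and Lor, upper follicle markers came second, with a mean log2 fold of 2.65 beside 4.68 for granular markers. The cluster led by Lce1m and Lce1a1 had 8 Card14KI and 4 WT UMIs only, with an interval of the ratio from 0.765 to 13.1. In the upper follicle class Krt16 was at 527 CPM in Card14KI and 180.4 CPM in WT (2.92, 2.50 to 3.42), with ratios of 3.93 and 2.94 in its clusters. At resolution 0.5 that log2 ratio was 0.37. In basal cells it was at 121 CPM in Card14KI and 101 CPM in WT, which did not pass 1.5-fold.

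**Figure D3:**
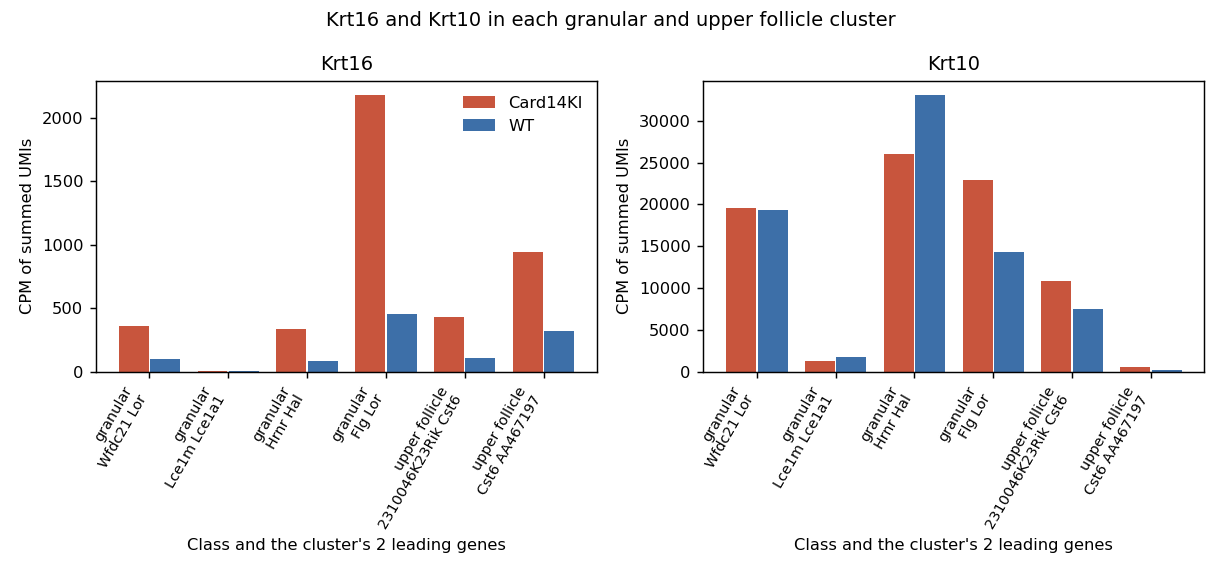
CPM of Krt16 (left) and Krt10 (right) in each cluster of the granular and upper follicle classes, Card14KI bars left of WT bars, 1 library each and no error bars. Krt16 is higher in Card14KI in every cluster drawn, from 8.72 CPM against 3.01 CPM in WT to 2183 CPM against 452 CPM in WT, while Krt10 is higher in Card14KI in some clusters and lower in others.

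In spinous cells the direction of Krt16 was the opposite, with 125 CPM in Card14KI and 738 CPM in WT, but 1 cell held 95 of the 117 Card14KI UMIs and 1 cell 295 of the 473 WT UMIs. Without the cell filter the log2 ratio there was 2.09 in place of -2.47. No direction is read from it. Krt17 in spinous cells, 64.3 CPM in Card14KI and 406 CPM in WT, likewise turned round to 0.071 at resolution 1.5.

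Krt6a, the type II wound keratin that pairs with Krt16, was lower in Card14KI basal cells. It was at 35.7 CPM in Card14KI basal cells and 147 CPM in WT, 4.13-fold lower (3.51 to 4.86), and its log2 ratio lay between -2.11 and -1.43 in the alternatives. In granular cells it was at 11.4 CPM in Card14KI and 10.9 CPM in WT. Krt6a UMIs per Krt16 UMI were 0.296 in Card14KI basal cells and 1.46 in WT ones, and 0.023 in Card14KI granular cells and 0.106 in WT ones. In the upper follicle class Krt6a was at 27.4 CPM in Card14KI and 158 CPM in WT, with 121 of the 179 WT UMIs in 1 cell, and the ratio turned round in 5 alternatives. In spinous cells Krt6a had 2 Card14KI and 28 WT UMIs, with 17 of the WT ones in 1 cell. Krt6b was low, with 41 Card14KI and 5 WT UMIs in granular cells.

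Krt17, a type I keratin of the follicle, reached its highest level in the upper follicle class, at 17133 CPM in Card14KI and 17579.7 CPM in WT, a ratio of 0.975 (0.957 to 0.992). In granular cells it was at 2364 CPM in Card14KI and 2153 CPM in WT. In basal cells it was at 196 CPM in Card14KI and 58.9 CPM in WT (3.34, 2.79 to 4.02), with 336 of the 1537 Card14KI UMIs in 1 cell and a log2 ratio of 0.29 with cells of high doublet score kept.

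**Figure D4:**
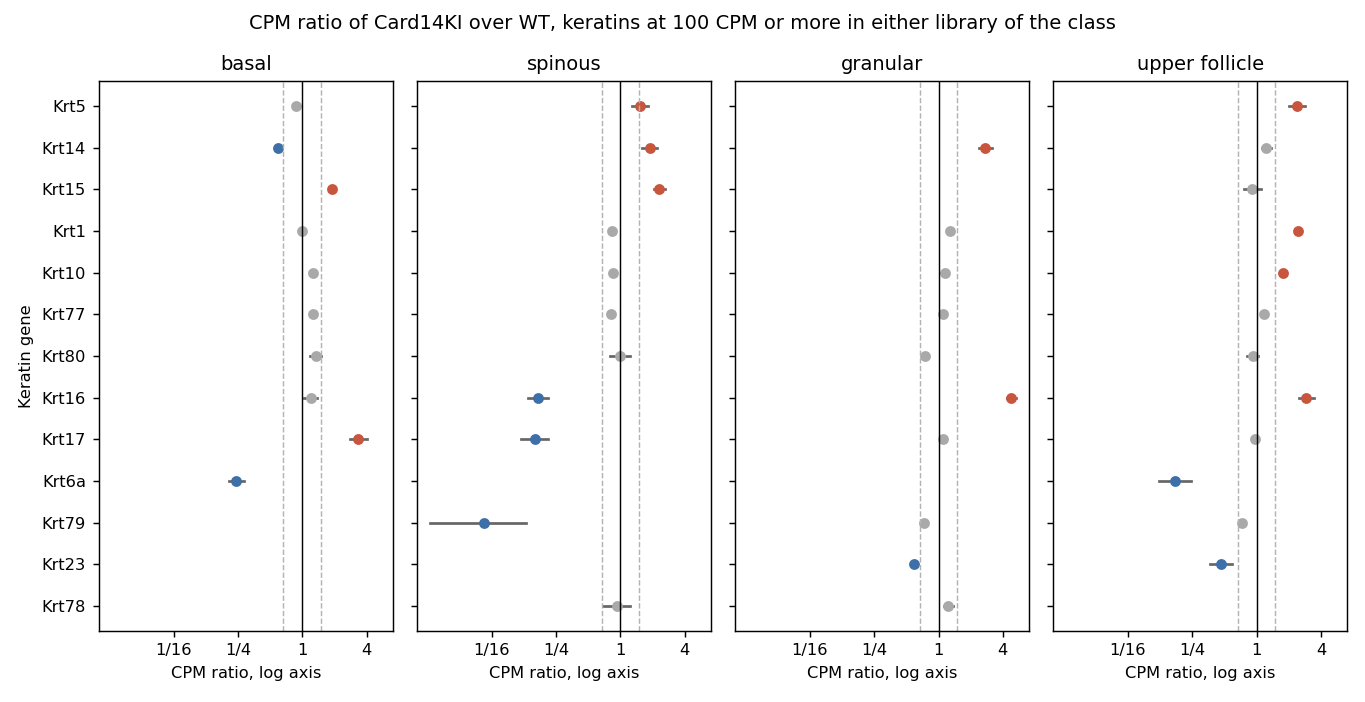
CPM ratio of Card14KI over WT (log axis, points) with 95% intervals for counting error (lines) in 4 classes, for keratins at 100 CPM or more in either library of the class. Red points are at or above 1.5-fold, blue points at or below its inverse and grey points between the dashed lines; Krt15 lies to the right in basal and spinous cells, Krt14 to the left in basal cells alone, and Krt16 to the right in granular and upper follicle cells.

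Counts of members past 1.5-fold are given beside the share of all genes past it. In basal cells 8 of the 21 members with 10 or more UMIs were higher in Card14KI and 7 lower, against 13.5% and 8.85% of all genes. In spinous cells 4 of 17 were higher and 8 lower, against 15.1% and 12.9% of all genes. In granular cells 7 of 28 were higher and 10 lower, against 17.5% and 8.56%, and in the upper follicle class 5 of 19 were higher and 6 lower, against 13.3% and 12.5%. In sebocytes 5 of 17 were higher and 5 lower, against 8.63% and 9.38%. Many of the lower members were lower follicle keratins at or near the WT fibroblast level, described below. Some members had a level in their higher library above that of its fibroblasts. Of these, 8 of 17 were higher and 3 lower in basal cells, and 4 of 15 and 6 in spinous cells. In granular cells the counts were 7 of 21 and 3, in upper follicle cells 5 of 17 and 4, and in sebocytes 2 of 7 and 0. This filter dropped more lower than higher calls in each class, and no share of all genes was taken under it. No direction is read from these counts. In the cells used as background, 5 of 29 members were higher and 16 lower in Card14KI fibroblasts, against 9.3% and 16.6% of all genes, and 0 of 14 higher and 7 lower in lymphocytes, against 9.43% and 25.1%.

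The keratins typical of the upper follicle and the sebaceous gland, Krt17 and Krt79 in the upper follicle and Krt14 and Krt79 in sebocytes, did not pass 1.5-fold. Krt79, a type II keratin of the follicle opening and sebaceous duct, was at 6419 CPM in Card14KI upper follicle cells and 8807 CPM in WT (0.729, 0.709 to 0.749). Krt79 per Krt17 was 0.375 in Card14KI there and 0.501 in WT. In sebocytes Krt79 was at 1329 CPM in Card14KI and 1468 CPM in WT (0.906), and Krt14 at 1769 CPM in Card14KI and 1568 CPM in WT (1.13). Sebocytes nearly lacked Krt17, with 76 UMIs in Card14KI and 73 UMIs in WT. Krt5 in sebocytes was at 96.3 CPM in Card14KI and 44.4 CPM in WT (2.17, 1.84 to 2.56), and Krt15 at 40.4 CPM in Card14KI and 18.1 CPM in WT (2.23, 1.73 to 2.91), beside 28.2 CPM and 8.88 CPM in fibroblasts of Card14KI and WT.

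Unnamed clusters carried the same keratins. That led by Fcgbp and Postn (52 Card14KI and 38 WT cells) had Krt17 at 4019 CPM in Card14KI and 3789 CPM in WT, Krt79 at 2988 CPM in Card14KI and 2888 CPM in WT, and Krt15 at 1105 CPM in Card14KI and 642 CPM in WT (1.72, 1.61 to 1.84). In that cluster 4 of 18 members were higher and 4 lower in Card14KI, against 11.8% and 11.4% of all genes. Another, led by Akr1c18 and Plin2 (93 Card14KI and 124 WT cells) had Krt14 at 2765 CPM in Card14KI and 2029 CPM in WT, and Krt17 at 104 CPM in Card14KI and 199.6 CPM in WT. There 0 of 14 members were higher and 8 lower, against 7.37% and 20% of all genes. Of the 8, Krt25, Krt27, Krt71 and Krt80 were at or below the fibroblast level. Krt28 and Krt75 were at only 7.04 CPM and 6.03 CPM in WT, and Krt1 changed sign without the top cells. The small cluster led by Akr1c18 and Igfbp2 (21 Card14KI and 22 WT cells) had Krt14 at 2639.9 CPM in Card14KI and 2015 CPM in WT. A cluster led by Cd74 and Cd207, genes of Langerhans cells, had 14 Card14KI and 0 WT cells and held Krt10 at 8211 CPM and Krt14 at 4195 CPM.

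Keratins of the lower follicle came almost wholly from the WT library. Over all kept cells, Krt71 had 1055 UMIs in Card14KI and 207633 UMIs in WT, Krt25 had 356 UMIs in Card14KI and 165915 UMIs in WT, and Krt33a had 6 UMIs in Card14KI and 14046 UMIs in WT. The inner root sheath class held 0 of 1011 Card14KI lineage cells, which allows a share of up to 0.297% by a floor of 3 counts and 0.364% by the exact interval. It held 56 of 1140 WT lineage cells, 4.91% (3.73 to 6.33, exact). Of the lineage cells, the Tchh and Krtap8-1 cluster held 1 Card14KI cell and 96 WT cells, and the outer root sheath and bulge class 5 Card14KI and 105 WT cells. The levels below are therefore levels of the WT library, and no ratio is given.

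The WT inner root sheath class had Krt71, a type II keratin of that sheath, at 73046 CPM, and its type I partners Krt25 at 61103 CPM, Krt27 at 30608 CPM and Krt28 at 2704 CPM. Krt71 had a UMI in 98.2% of these cells and Krt25 in 100% of them. Krt71 was 0.774 (0.769 to 0.779) of the 3 type I genes together. Krt73, found in the cuticle of the sheath, was at 274 CPM there but at 2256 CPM in the WT cells of the Tchh and Krtap8-1 cluster. That cluster also held Krt71 at 13808 CPM, Krt25 at 9485 CPM, Krt27 at 9879 CPM and Krt28 at 2546 CPM. Its 1 Card14KI cell, of 16565 UMIs, had 1041 UMIs of Krt71, 797 of Krt27 and 349 of Krt25, so that this cell held most of the inner root sheath keratin of its library.

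Hair shaft keratins sat in few cells of the same cluster. Krt33a, a type I keratin of the hair cortex, was at 4112 CPM in WT with a UMI in 12.5% of cells, and the highest cell held 7770 of its 13832 UMIs. Krt83, a type II cortex keratin, was at 3189 CPM in 8.33% of cells, with 5822 of 10726 UMIs in 1 cell, and Krt81 at 3030 CPM in 13.5% of cells, with 5534 of 10192 UMIs in 1 cell. Krt34, Krt86, Krt33b and Krt31, all of the hair shaft, were at 1029.8 to 2409 CPM. The other hair shaft members Krt35, Krt39 and Krt82 were at 132, 41.6 and 26.5 CPM there, and the inner root sheath members Krt72 and Krt26 at 296 and 112 CPM. Krt87 shares 24.8% of the 90-base words of its last 400 bases with another gene, Gm49425, so its 2461 UMIs are uncertain.

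The WT outer root sheath and bulge class had Krt17 at 7469 CPM, Krt14 at 3435 CPM, Krt5 at 2504 CPM, Krt75, a companion layer keratin, at 1045 CPM, Krt15 at 839.8 CPM and Krt6a at 529 CPM. Its 5 Card14KI cells had Krt15 at 7841 CPM, Krt5 at 4177 CPM, Krt17 at 3289 CPM and Krt6a at 1306 CPM. Markers of the class differed between these cells and the WT ones, so they are not read as like cells. Postn was at 3803 CPM in Card14KI and 81.5 CPM in WT, Nfatc1 at 451 CPM and 13.5 CPM, and Cd34 at 288 CPM and 49.7 CPM. Lgr5 alone went the other way, at 4.80 CPM in Card14KI and 91.3 CPM in WT. The low-UMI cluster led by Pinlyp and Cpm, with 12 Card14KI and 163 WT cells and medians of 2314 UMIs in Card14KI and 1904 UMIs in WT, had Krt14 at 3158 CPM in Card14KI and 9002 CPM in WT. Krt17 was at 78.1 CPM in its Card14KI cells and 9049 CPM in its WT cells, and Krt6a at 14.6 CPM in Card14KI and 4069 CPM in WT. With so few Card14KI cells, no direction is read from these values.

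**Figure D5:**
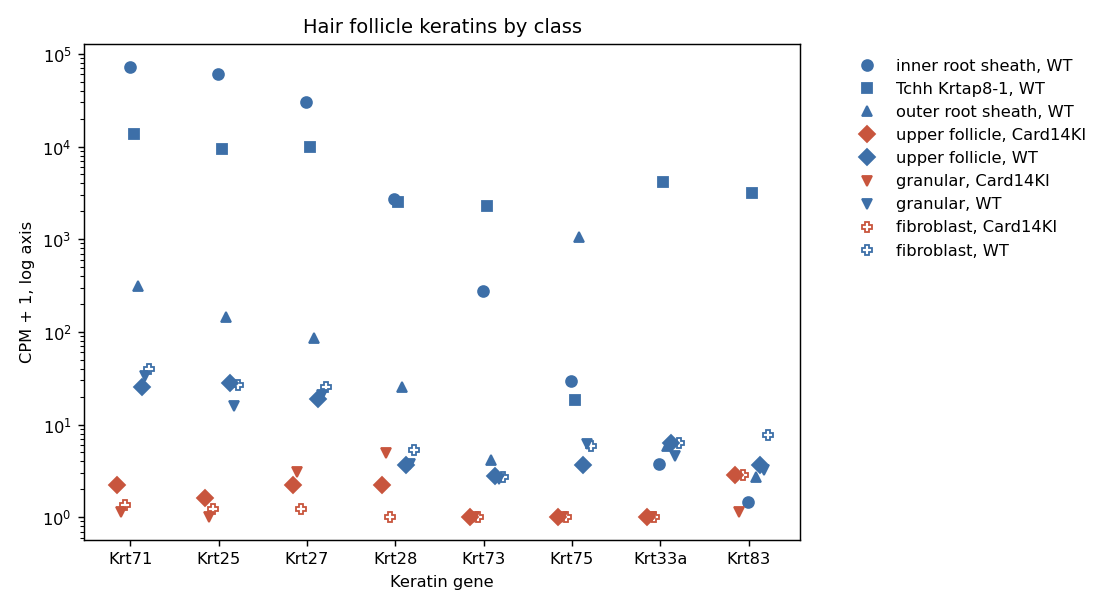
CPM + 1 on a log axis of 8 lower follicle keratins in selected classes of 30 or more cells, Card14KI in red left of WT in blue, open symbols for fibroblasts. The WT inner root sheath and Tchh Krtap8-1 symbols lie up to 73046 CPM, whereas granular and upper follicle symbols of WT lie near the WT fibroblasts, at 39.04 CPM for Krt71, and those of Card14KI near 0.

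Outside the lower follicle, Krt71, Krt25 and Krt27 were near the fibroblast level in WT. Krt71 was at 24.3 to 32.8 CPM in WT basal, spinous, granular, upper follicle and sebocyte cells, beside 39.04 CPM in WT fibroblasts and 63.0 CPM in WT lymphocytes, and at 0 to 1.22 CPM in those classes of Card14KI. Krt25 was at 14.7 to 27.4 CPM and Krt27 at 16.5 to 31.2 CPM in the same WT classes, beside 25.6 CPM and 24.7 CPM in WT fibroblasts. Krt71 per UMI of Krt25, Krt27 and Krt28 together was 0.715 (0.648 to 0.789) in WT fibroblasts and 0.774 in the WT inner root sheath class. The WT Tchh and Krtap8-1 cluster also held these 4 genes, with 46449 UMIs of Krt71 beside 31907 of Krt25, 33231 of Krt27 and 8566 of Krt28. No source is read from these values. The lower calls of these 3 genes in those classes rest on WT levels near those of WT fibroblasts, and their source was not tested. Krt28 stood apart in sebocytes, with 7.71 CPM in Card14KI and 10.9 CPM in WT, beside 0 UMIs in Card14KI fibroblasts and 4.30 CPM in WT fibroblasts. Card14KI granular cells also had 26 UMIs of it, 3.89 CPM, beside 2.72 CPM in WT granular cells.

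Simple epithelial keratins were low apart from Krt23. Krt23, a type I keratin, was at 919.5 CPM in Card14KI granular cells and 1567 CPM in WT, 1.70-fold lower (1.65 to 1.76), and at 79.2 CPM in Card14KI upper follicle cells and 171 CPM in WT, 2.15-fold lower (1.72 to 2.71). In the granular cluster led by Lce1m and Lce1a1, where it was highest, it stood at 2938 CPM in Card14KI and 3712 CPM in WT, and this cluster held 40 of 261 Card14KI and 46 of 148 WT granular cells. With the clusters weighted equally the granular log2 ratio was -0.25, so the call did not hold. Krt7, of simple and glandular epithelia, was at 64.6 CPM in Card14KI upper follicle cells and 32.7 CPM in WT (1.97, 1.35 to 2.95), and turned round to -0.82 with cells of high doublet score kept or at resolution 1.5. Krt8 and Krt18, the pair of simple epithelia, stayed at or under 2.39 CPM in Card14KI classes of 30 or more cells and reached 43.9 CPM and 194.9 CPM in the WT Pinlyp and Cpm cluster, where 1 cell held 48 of 59 and 194 of 262 UMIs.

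Several low members were higher in Card14KI basal cells. Krt32, known in human as a hair cuticle keratin, was at 35.7 CPM in Card14KI basal cells and 9.81 CPM in WT (3.63, 2.35 to 5.89), with a UMI in 53.3% of Card14KI and 24.6% of WT cells. Thinned to 2000 UMIs the UMI was in 7.59% of Card14KI and in 0 of 56 WT basal cells, beside 0 Card14KI fibroblasts and 0.0994% of WT fibroblasts, so no order of shares is read at this depth. Krt78, a type II keratin of differentiating epidermis, was at 38.6 CPM in Card14KI and 18.7 CPM in WT (2.06, 1.49 to 2.92), and in granular cells at 219.7 CPM in Card14KI and 177 CPM in WT (1.24). Krt79 in basal cells was at 58.4 CPM in Card14KI and 22.3 CPM in WT, but turned round in 2 alternatives. Krt80, a type II keratin of many differentiating epithelia, was at 666 CPM in Card14KI granular cells and 893 CPM in WT (0.746, 0.715 to 0.779). Krt222, a divergent family member, had 47 UMIs in Card14KI granular cells and 0 in WT. That is at least 10.3-fold higher against a floor of 3 counts for WT, while the exact interval of the ratio reached down to 8.08. Krt24 was at 13.2 CPM in Card14KI basal cells, with 61 of its 103 UMIs in 1 cell, and at 4.91 CPM in WT. Further low members were highest in WT: Krt19 at 19.2 CPM and Krt42 at 13.8 CPM in the outer root sheath and bulge class, and Krt90 at 31.2 CPM in the Pinlyp and Cpm cluster, all from 1 cell. Krt2, Krt4, Krt6b, Krt9, Krt12, Krt13, Krt20, Krt36, Krt40, Krt76, Krt84, Krt88 and Krt222 stayed under 10 CPM in every keratinocyte class of 30 or more cells.

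Among 20 genes whose products bind or crosslink keratin filaments (desmosomal plaque proteins, plakins, filaggrins and transglutaminases), 7 of 19 measured were higher and 1 lower in Card14KI basal cells, against 13.5% and 8.85% of all genes. In spinous cells 1 of 18 was higher and 6 lower, against 15.1% and 12.9%, and in granular cells 1 of 19 was higher and 2 lower, against 17.5% and 8.56%. In upper follicle cells 3 of 17 were higher and 1 lower, against 13.3% and 12.5%. Their median log2 ratios were 0.15 in basal, -0.035 in spinous, 0.22 in granular and 0.25 in upper follicle cells, beside 0.014, -0.0012, 0.090 and -0.0073 over all genes. Dsp, the desmosome plaque protein that anchors keratins, was at 1734 CPM in Card14KI granular cells and 1612 CPM in WT (1.08). Flg, whose product bundles keratin in the dying cells, was at 2162 CPM in Card14KI granular cells and 5559 CPM in WT, 2.57-fold lower. Hrnr, a filaggrin-like protein gene, was at 24.5 CPM in Card14KI basal cells and 2.23 CPM in WT. That WT level lay under the 10 CPM added to log2 ratios, so the size of the difference is not read. Dst, a plakin of the basal attachment sites, was at 199 CPM in Card14KI spinous cells and 101 CPM in WT (1.96), and at 138 CPM in Card14KI upper follicle cells and 62.8 CPM in WT (2.20). Dst, Flg, Flg2 and Hrnr also served as class markers.

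Of 15 transcription factors that act on keratin genes, 3 of 13 measured were higher and 1 lower in Card14KI basal cells, against 13.5% and 8.85% of all genes. In spinous cells 0 of 10 were higher and 3 lower, against 15.1% and 12.9%, and in granular cells 0 of 13 were higher and 0 lower, against 17.5% and 8.56%. In upper follicle cells 1 of 12 was higher and 0 lower, against 13.3% and 12.5%. Their median log2 ratios were 0.15 in basal, -0.059 in spinous, 0.056 in granular and 0.0038 in upper follicle cells. Trp63, the master regulator of the basal state, was at 442 CPM in Card14KI basal cells and 481 CPM in WT. Cebpa, a factor of early differentiation, was at 163 CPM in Card14KI basal cells and 87.9 CPM in WT (1.85, 1.59 to 2.16), and Ovol1, which acts at the exit from the basal layer, at 195.7 CPM in Card14KI and 128 CPM in WT (1.53, 1.35 to 1.74). In granular cells Klf4, a factor of late differentiation, was at 1270.0 CPM in Card14KI and 1398 CPM in WT.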

How the data were processed

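Raw UMI counts of each gene in each called cell were deposited by the authors, without normalization. The submitters' processing notes name Cell Ranger 6.0.2 and mm10, whereas the file headers name version 5.0.0. No annotation release is given in the labels or headers. Cells with under 500 genes or 20% or more mitochondrial UMIs were removed. Scrublet's automatic threshold marked 4 Card14KI and 2 WT cells, too few to rely on, and the 78 Card14KI and 174 WT cells of highest score were removed instead (0.8% per 1000 barcodes). Kept UMIs numbered 38365728 in Card14KI and 51040861 in WT. Both libraries were clustered together in scanpy 1.11.5 (2000 variable genes without keratins, response, cell cycle, mitochondrial, ribosomal and haemoglobin genes, 30 components, 20 neighbours, Leiden resolution 1), first all cells and then the keratinocyte lineage. A cluster took the class whose non-keratin markers led it by mean log2 fold over the median of the other clusters, with 3 or more detected in 10% of cells. It stayed unnamed where none, or more of another class, stood in its top 10 genes, a rule settled after clusters were seen. Levels are CPM of summed UMIs with exact Poisson intervals, and ratios have exact conditional binomial intervals, tested on simulated data. Log2 ratios have 10 CPM added. Named are members at 100 CPM or more in a class (1000 where a library has under 30 cells) and up to 6 lower called ones. Values of some members that meet this rule are left out in some classes. Genes outside that rule were chosen after their values were seen. Members and lists were chosen with earlier results of these data known. Alternatives covered cell and doublet filters, clustering genes and resolution, scaling, weights, thinning and top cells.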

Additional observations from a re-analysis of the deposited data

Results flagged for a closer look

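For 6 keratins the ratio of Card14KI over WT passed 1.5-fold in opposite directions in different named classes. With 1 library per group the difference between classes was not tested. The share of all genes that pass in opposite directions was not taken, so the count is not read as a trait of keratins. Krt14 had ratios of 0.5996 in basal, 1.87 in spinous and 2.73 in granular cells. Krt16 had ratios of 0.170 in spinous, 4.80 in granular and 2.92 in upper follicle cells. Krt17 had 3.34 in basal and 0.159 in spinous cells, and Krt79 had 2.62 in basal and 0.0528 in spinous cells. Krt23 had 5.02 in basal, 0.587 in granular and 0.464 in upper follicle cells, and Krt7 had 2.03 in basal, 0.429 in granular and 1.97 in upper follicle cells. The spinous values of Krt16, Krt17 and Krt79 rest on few cells, and the spinous Krt16 and Krt17, the basal Krt79 and the upper follicle Krt7 values turned round under other settings. The granular Krt23 value did not pass 1.5-fold with clusters weighted equally. For granular Krt14, the highest WT cell held 156 of 255 UMIs. Basal Krt23 was at 8.95 CPM in Card14KI and 1.78 CPM in WT, beside 7.88 CPM and 6.98 CPM in their fibroblasts, so it was not above background in WT. Krt7 was low, at 9.08 CPM in Card14KI and 4.46 CPM in WT basal cells, and at 3.89 CPM in Card14KI and 9.07 CPM in WT granular cells.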

How the results depend on the processing

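Sign changes were counted only for the 63 of 101 named results that passed 1.5-fold, so those of the other results are not included. Among 1048 log2 ratios of all named results recomputed under alternatives, 25 were counted as sign changes, in 11 results, and the cause was not tested. These were Krt79 in basal cells (-0.046 without the cell filter and -0.098 with cell cycle genes kept), and in spinous cells Krt16 (2.09 without the cell filter, 0.78 with cell cycle genes kept, 0.30 at resolution 1.5), Krt17 (0.071 at resolution 1.5), Krt5 (-0.043 thinned) and Krt23 (0.20 with cell cycle genes kept, 0.58 at resolution 1.5, 0.74 as a mean of per-cell CPM, 0.021 without the top cells, 2.23 thinned). In granular cells it was Krt5 (-0.15 at resolution 1.5), and in the Akr1c18 Plin2 cluster Krt1 (0.42 without the top cells). In upper follicle cells Krt42 (0.10 without the cell filter, 0.054 at resolution 0.5), Krt6a (0.35 without the cell filter, 0.083 with the stricter one, 0.11 with keratins kept, 0.15 with cell cycle genes kept, 0.44 at resolution 0.5), Krt7 (-0.82) and Krt1 (-0.12) did so, the last pair with high doublet scores kept and at resolution 1.5.

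The keratin share ratio in basal cells was 0.975 with the stricter filter, 1.02 with doublets kept and 1.01 with cell cycle genes kept. In spinous cells it was 1.06 with no filter, 0.9998 with the stricter one, 1.004 with doublets kept, 0.932 with keratins kept, 1.17 with cell cycle genes kept, 0.9496 at resolution 1.5, 0.985 as a per-cell mean and 0.921 without the top cells. In granular cells it was 1.11, 1.14, 1.11, 1.13, 1.11 and 1.23 with no filter, the stricter filter, keratins kept, cell cycle genes kept and resolutions 0.5 and 1.5, 1.10 as a per-cell mean and 1.02 with clusters weighted equally. With 1 or more UMIs required in place of 10, members past 1.5-fold were 32 in basal, 21 in spinous and 32 in granular cells, against 15, 12 and 17. The shares of all genes given above hold for 10 or more UMIs only, so nothing about keratins is read from this rise. Resolution 1.5 had no basal class. No paired analysis was possible because each group has 1 library. Counts under 10 UMIs limit 4 members over both libraries, and intervals cover counting error only.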
